A study of Homo sapiens with 26 samples.

Results

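The genes described here are 10 transcriptional outputs and negative regulators of the RAS to ERK (MAPK) pathway: the phosphatases DUSP4, DUSP5 and DUSP6, the adaptor-type inhibitors SPRY2, SPRY4, SPRED1 and SPRED2, the ETS transcription factors ETV4 and ETV5, and PHLDA1. They were chosen by name as known pathway members, with earlier results of these data known. All 10 were found among the 58735 genes of the deposited table. The study compared cancer cell clones that had undergone whole-genome doubling and differed in cell and nuclear size. RNA was sequenced from 26 cultures of 3 established lines, HCT116 and DLD1 from colon and CAL51 from a breast tumour labelled triple negative. Tetraploid (4N) clones were derived by 20 hr of exposure to a drug that stops cells from dividing, followed by 48 hr of recovery and limiting dilution to single cells. The drug was 75 µM blebbistatin in HCT116 and CAL51 and 1.5 µg/mL dihydrocytochalasin in DLD1, so drug and line cannot be told apart. Only the 4N clones are labelled with a drug, so ploidy and drug exposure cannot be told apart either. HCT116 gave 1 parental library, 2 diploid (2N) clones, 3 small 4N clones and 3 large 4N clones. DLD1 gave 1, 2, 3 and 4 of these, and CAL51 gave 1, 2, 1 and 3. Each library other than the parental ones is 1 single-cell clone, so the spread within a group is the spread between clones, and CAL51 has a single small clone with no replicate.

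ERK signalling runs from receptor tyrosine kinases through RAS proteins to the kinases RAF, MEK and ERK. Active ERK induces genes whose products then dampen the pathway, and the levels of these transcripts are widely used as a readout of ERK activity. DUSP6 removes the activating phosphates from ERK in the cytoplasm, and DUSP4 and DUSP5 are nuclear phosphatases that act on MAP kinases. Sprouty and SPRED proteins act upstream, at the level of RAS and RAF activation. ETV4 and ETV5 are ETS-family activators induced by growth factor signals, and PHLDA1 is a pleckstrin-homology domain protein induced by ERK signalling.

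Each library held 23.5 M to 44.5 M reads in genes, with a median of 32.5 M. Mitochondrial genes took 2.42% to 10.1% of them. All 5 epithelial markers had a mean of at least 1 FPKM (fragments per kilobase of gene length, scaled to library size) in each line. Of 6 intestinal markers, HCT116 had 1 at that level (CDX2), DLD1 had 3 and CAL51 had 0. Of 8 breast epithelial markers, HCT116 had 2, DLD1 had 1 and CAL51 had 2. In CAL51, GATA3, ESR1, PGR, KRT5, KRT7 and KRT14 were below it. The epithelial markers summed to 205 to 3899 FPKM in CAL51 libraries. Fibroblast markers, among them collagen genes, summed to 0.759 to 37.9 FPKM in CAL51 libraries, while 0 of 5 leukocyte and 0 of 3 endothelial markers had a mean of 1 FPKM or more in any line. Single libraries went higher, up to 3.24 FPKM for CDH5 and 1.02 for VWF in CAL51 and 1.53 for CD14 in DLD1. Their part in the results was not tested. Among the 10 genes, HCT116 large clone 3, DLD1 2N clone 2 and CAL51 large clone 2 stood apart from the other libraries of their line. Log2 differences and spreads of single genes among the 10, and correlations between pairs of them, were checked without these libraries. Those named below that moved by over 1.5 times are given both ways. Correlations with genes outside the 10 are given with all libraries only.

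Promoter sequence is shown for SPRY2 and SPRY4, whose levels followed that of DUSP6 across clones. The RefSeq table (GRCh38.p14) held 250-base windows before the start site for 6 of the 10 genes, 9 windows in all, and none for DUSP4, DUSP5, ETV4 and ETV5. The first stretch lies upstream of the annotated span of SPRY2, and the other is the intronic part of a window inside SPRY4. Both read 5′ to 3′ on the minus strand, and capitals mark the letters CCGGAA, a core that many ETS factors recognise.
SPRY2, chr13:80341127-80341376: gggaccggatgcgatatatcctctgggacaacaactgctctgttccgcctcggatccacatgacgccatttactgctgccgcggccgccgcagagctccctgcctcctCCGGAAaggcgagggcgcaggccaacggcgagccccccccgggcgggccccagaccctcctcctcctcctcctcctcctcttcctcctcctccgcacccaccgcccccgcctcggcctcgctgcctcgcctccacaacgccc
SPRY4, chr5:142324418-142324497: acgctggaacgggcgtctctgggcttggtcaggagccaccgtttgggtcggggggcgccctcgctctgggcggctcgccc
The match in SPRY2 starts at position -142 from the start site. PHLDA1 held the only other match, at -89 on the opposite strand. The same letters, searched on both strands, occur in 14.5% of the 35116 promoter windows of this length. The AP-1 motif TGANTCA (6.57% of windows) and the CRE motif TGACGTCA (1.65%) had no match in the 9 windows. A match describes letters and is no evidence of binding.

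**Figure D1:**
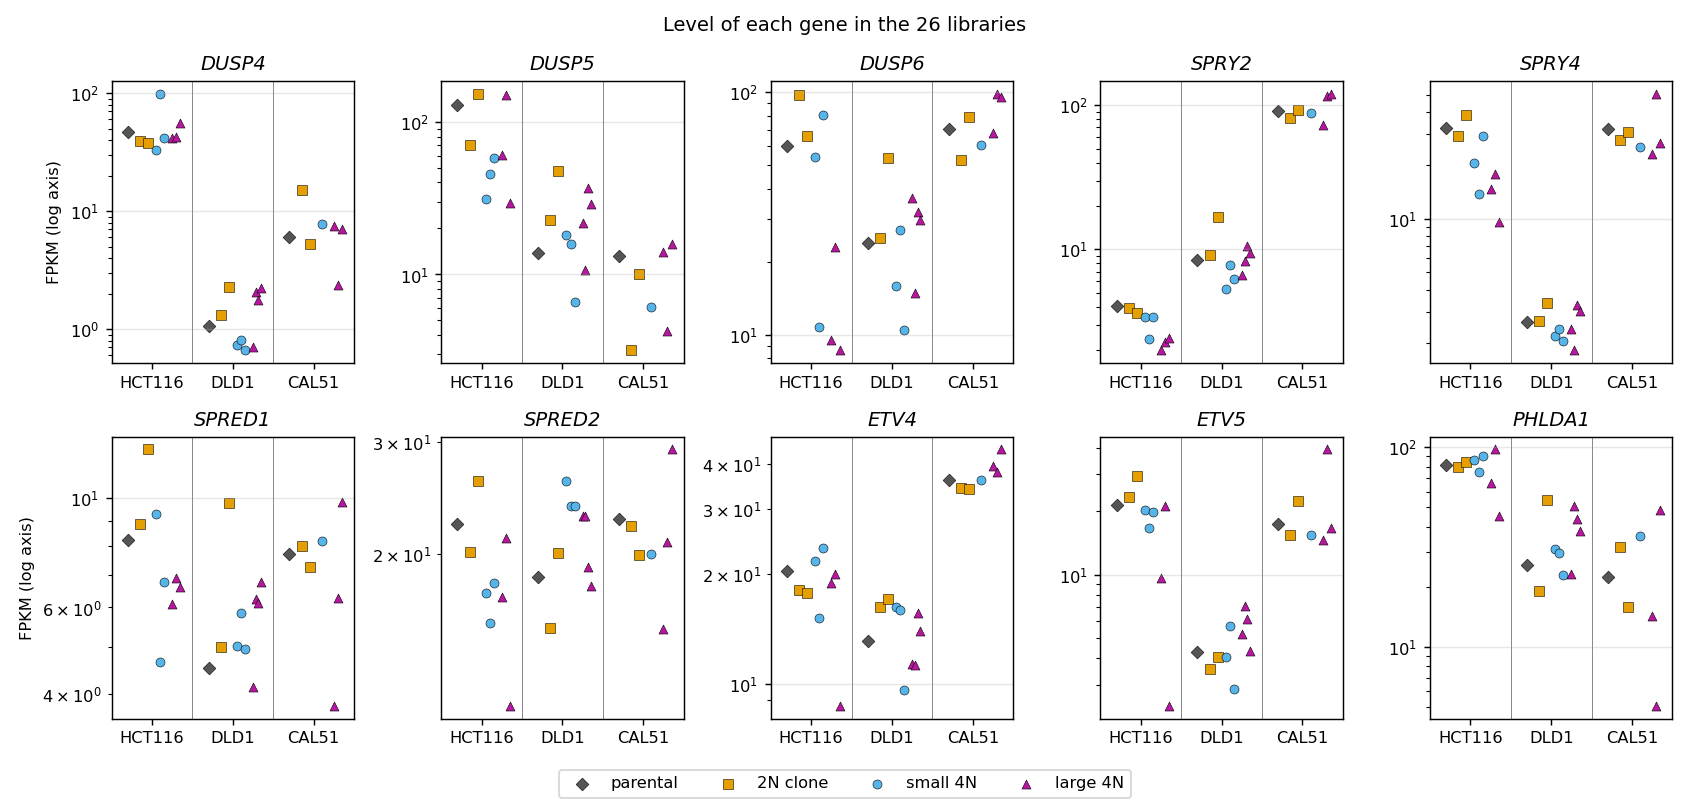
Level of the 10 genes in each of the 26 libraries, with FPKM on a log axis and the 3 lines side by side. Each point is 1 library, and symbol and colour give the class (parental, 2N clone, small 4N clone, large 4N clone). DUSP4, SPRY2 and SPRY4 separate by line, with DLD1 lowest for DUSP4 and SPRY4 and HCT116 lowest for SPRY2, while DUSP6 in HCT116 spans 8.62 to 97.3 FPKM.

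The cell line set the level of most of these genes, and each line had its own combination. HCT116 had the highest DUSP4, DUSP5 and PHLDA1, CAL51 had the highest SPRY2 and ETV4, and DLD1 had little SPRY4, ETV5 or DUSP4. The genes other than DUSP6, SPRED1 and SPRED2 passed the threshold (adjusted p under 0.05, limma over 14835 genes) in at least 1 of the 3 comparisons between lines, made on the parental and 2N libraries. Between HCT116 and DLD1 6 of the 10 passed, where the share of all tested genes was 49.4%. Between HCT116 and CAL51 5 passed, against 52.5%, and between DLD1 and CAL51 6 passed, against 48.1%. These shares are close to those of all genes, so the genes are described here by the size and pattern of their differences. The lines differ in tissue, donor and culture history, and these factors cannot be told apart. In bulk libraries a smaller share of expressing cells and less RNA per cell cannot be told apart either, and FPKM is relative to the RNA of the library, not to the cell.

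Among the phosphatases, DUSP4 differed most between lines. Its levels were 33.2 to 98.6 FPKM in HCT116 (median 42.0, 9 libraries), 2.36 to 15.2 in CAL51 (median 7.12, 7 libraries) and 0.662 to 2.26 in DLD1 (median 1.20, 10 libraries). The 3 ranges do not overlap. In the 2N libraries its log2 difference, on the log2(FPKM + 1) scale used for all differences here, was 4.07 between HCT116 and DLD1 (SE 0.40, adjusted p 2.05e-07). HCT116 also exceeded CAL51 by 2.24 (SE 0.40), and the difference of DLD1 against CAL51 was -1.83 (SE 0.40).

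DUSP5 followed another order. It ranged from 29.5 to 152 FPKM in HCT116 (median 60.2), from 6.61 to 47.6 in DLD1 (median 20.0) and from 3.19 to 15.8 in CAL51 (median 10.0). Only the ranges of HCT116 and CAL51 stay apart. HCT116 exceeded CAL51 by 3.69 (SE 0.60) and DLD1 by 2.12 (SE 0.60), and DLD1 exceeded CAL51 by 1.57 (SE 0.60, adjusted p 0.0392). The last of these did not pass without DLD1 2N clone 2 (adjusted p 0.173) or without CAL51 2N clone 1 (1.10, adjusted p 0.209). The difference between HCT116 and DLD1 did not pass without HCT116 2N clone 2 (1.76, adjusted p 0.0521) or without DLD1 2N clone 1 (1.78, adjusted p 0.0501).

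DUSP6 did not pass in any comparison between lines. Its median was 53.8 FPKM in HCT116, 26.01 in DLD1 and 70.3 in CAL51. The log2 differences in the 2N libraries were 1.17 between HCT116 and DLD1 (95% interval -0.01 to 2.34), 0.13 between HCT116 and CAL51 (-1.05 to 1.31) and -1.04 between DLD1 and CAL51 (-2.22 to 0.14). These intervals are wide, so the data do not show equal levels.

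SPRY2 and SPRY4, both inhibitors that act on receptor signalling upstream of ERK, ranked the lines differently. SPRY2 was at 73.1 to 119.6 FPKM in CAL51 (median 90.3), 5.33 to 16.7 in DLD1 (median 8.38) and 2.00 to 4.03 in HCT116 (median 3.40), with no overlap between lines. The difference between HCT116 and CAL51 was -4.20 (SE 0.21, adjusted p 1.9e-11), and that between HCT116 and DLD1 was -1.30 (SE 0.21). SPRY4 was at 23.0 to 50.4 FPKM in CAL51 (median 27.9), 9.59 to 38.5 in HCT116 (median 20.6) and 1.82 to 3.37 in DLD1 (median 2.51). Its DLD1 libraries lie below all others. The difference was -3.01 for DLD1 against CAL51 and 3.14 for HCT116 against DLD1 (SE 0.28 for each). HCT116 and CAL51 differed in SPRY4 by 0.13, with an interval of -0.45 to 0.72.

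SPRED1 and SPRED2, which recruit the RAS-inactivating protein neurofibromin to the membrane, had similar ranges in the 3 lines. SPRED1 lay between 3.79 and 12.6 FPKM and SPRED2 between 11.6 and 29.2 FPKM over all 26 libraries. No line difference passed for either gene. The largest was that of SPRED1 between HCT116 and DLD1, 0.60 (95% interval 0.03 to 1.16, adjusted p 0.0769), which passed without DLD1 2N clone 2 (0.88, adjusted p 0.0223) and was 0.31 without DLD1 2N clone 1.

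Of the ETS factors, ETV4 was highest in CAL51, at 34.0 to 43.7 FPKM, above every library of HCT116 (8.70 to 23.5) and DLD1 (9.64 to 17.1). Its differences were -0.86 for HCT116 against CAL51 (SE 0.24) and -1.13 for DLD1 against CAL51 (SE 0.24). ETV5 was lowest in DLD1, with a median of 4.32 FPKM against 20.3 in HCT116 and 16.7 in CAL51. HCT116 exceeded DLD1 in ETV5 by 2.37 (SE 0.46), and the difference of DLD1 against CAL51 was -1.95 (SE 0.46). PHLDA1 had medians of 81.9 FPKM in HCT116, 30.2 in DLD1 and 22.4 in CAL51. Its HCT116 2N libraries exceeded those of DLD1 by 1.42 (SE 0.54, adjusted p 0.0359) and those of CAL51 by 1.83 (SE 0.54, adjusted p 0.0082). The former lost the threshold without DLD1 2N clone 1 (0.93, adjusted p 0.225), HCT116 2N clone 1 (adjusted p 0.0798) or HCT116 2N clone 2 (adjusted p 0.0927), and the latter without CAL51 2N clone 2 (1.50, adjusted p 0.0553).

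In HCT116, mean levels of DUSP6, SPRY4, ETV5 and SPRY2 were lower in tetraploid clones than in 2N libraries, and lowest in the large clones. Single clones departed from this, and none of the 10 genes passed the threshold in the comparisons of classes. DUSP6 was at 59.8 FPKM in the parental library and at 97.3 and 65.7 in 2N clones 1 and 2. Small 4N clones 1, 2 and 3 had 53.8, 10.8 and 80.6 FPKM, and large clones 1, 2 and 3 had 9.49, 23.1 and 8.62 FPKM. The large clones lie below all 3 of the 2N libraries, but small clone 2 is as low as the large ones, so the size classes overlap.

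For SPRY4, the parental library and 2N clones 1 and 2 of HCT116 had 32.4, 29.1 and 38.5 FPKM. The small clones had 20.6, 13.9 and 29.1 FPKM and the large clones 14.8, 17.9 and 9.59 FPKM. All 6 tetraploid clones lie below the 2N libraries, small clone 3 only just, and the 2 size classes overlap. ETV5 was at 21.5, 23.3 and 29.6 FPKM in the 2N libraries in that order. It was at 20.3, 16.8 and 19.9 FPKM in the small clones and at 9.66, 21.2 and 2.38 FPKM in the large clones. Large clone 2 kept ETV5 close to the parental level, and large clone 3 had the lowest value of all 26 libraries. SPRY2, low in this line throughout, was at 4.03, 3.92 and 3.61 FPKM in the 2N libraries, at 3.40, 2.39 and 3.40 in the small clones and at 2.00, 2.30 and 2.42 in the large clones.

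SPRY2, SPRY4 and ETV5 were lower in every tetraploid clone of HCT116 than in every 2N library, 3 of the 10, while 3.24% of the tested genes were lower in this way. None of the 10 was higher in this way (2.93% of all genes). Between large and small clones of HCT116, 0 of the 10 genes had groups that did not overlap (6.85% of all genes higher and 7.50% lower).

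Large clones of HCT116 averaged 13.7 ± 8.10 FPKM of DUSP6 (SD, n = 3), against 81.5 ± 22.3 (n = 2) in the 2N clones. The log2 difference was -2.59 (95% interval -3.91 to -1.27, adjusted p 0.0561). SPRY4 averaged 14.1 ± 4.18 FPKM against 33.8 ± 6.62, a difference of -1.23 (-1.89 to -0.58, adjusted p 0.0662). ETV5 differed by -1.56 (-2.65 to -0.46, adjusted p 0.149) and SPRY2 by -0.56 (-1.06 to -0.05, adjusted p 0.259). By limma 0 of 10 genes passed, against 0.917% of all tested genes, 4 had an unadjusted p under 0.05 (16% of all genes), and voom on recovered reads called 0. The median log2 difference of the 10 genes was -0.59, with 9 of 10 below 0, beside a median of -0.00035 over all tested genes.

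These values sit at the edge of the threshold and depend on which clones are counted. For refits with libraries left out or added, the share of all tested genes that passed is not given here. The genes passing in them are therefore not set against all genes. With the parental library added to the 2N clones, DUSP6 (-2.45, adjusted p 0.0122) and SPRY4 (-1.22, adjusted p 0.0112) passed. Without large clone 2, DUSP6 (-3.01, adjusted p 0.0129), SPRY4 (-1.41, adjusted p 0.0179) and ETV5 (-2.18, adjusted p 0.00985) passed. Without large clone 3 none of the 3 passed, at -2.35 for DUSP6 (adjusted p 0.141), -0.999 for SPRY4 (adjusted p 0.176) and -0.83 for ETV5 (adjusted p 0.40). Leaving out either 2N clone gave adjusted p values of 0.236 to 0.55 for these 3 genes.

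Large and small clones of HCT116 differed in DUSP6 by -1.48 (95% interval -2.66 to -0.30, adjusted p 0.213) and in ETV5 by -1.10 (-2.08 to -0.13, adjusted p 0.263). By limma 0 of 10 genes passed (0.445% of all tested genes did), these 2 had an unadjusted p under 0.05 (15.4% of all genes), and voom called 0. The median over the 10 genes was -0.33, with 9 of 10 below 0. DUSP6 passed without small clone 2 (-2.31, adjusted p 0.0247) and ETV5 without large clone 2 (-1.73, adjusted p 0.0206). The DUSP6 difference was -0.92 without small clone 3 (adjusted p 0.453), and that of ETV5 was -0.37 without large clone 3 (adjusted p 0.834). The other direction was seen in DUSP5, at 0.55 with an interval of -0.71 to 1.82, which rests on large clone 2 (150.2 FPKM) and was -0.048 without it and 1.11 without large clone 3.

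Small 4N clones of HCT116 against its 2N clones gave 0 of 10 genes past the threshold by limma (0.027% of all tested genes) and 0 by voom. SPRY4 alone had an unadjusted p under 0.05, as did 4.55% of all genes, with a difference of -0.70 (95% interval -1.35 to -0.04) that was -0.44 without small clone 2. DUSP5 was at 31.4, 45.3 and 58.2 FPKM in the small clones, below the parental library (128) and 2N clones 1 and 2 (70.7 and 152). Its difference was -1.23 (-2.64 to 0.18), and -0.68 without 2N clone 2.

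**Figure D2:**
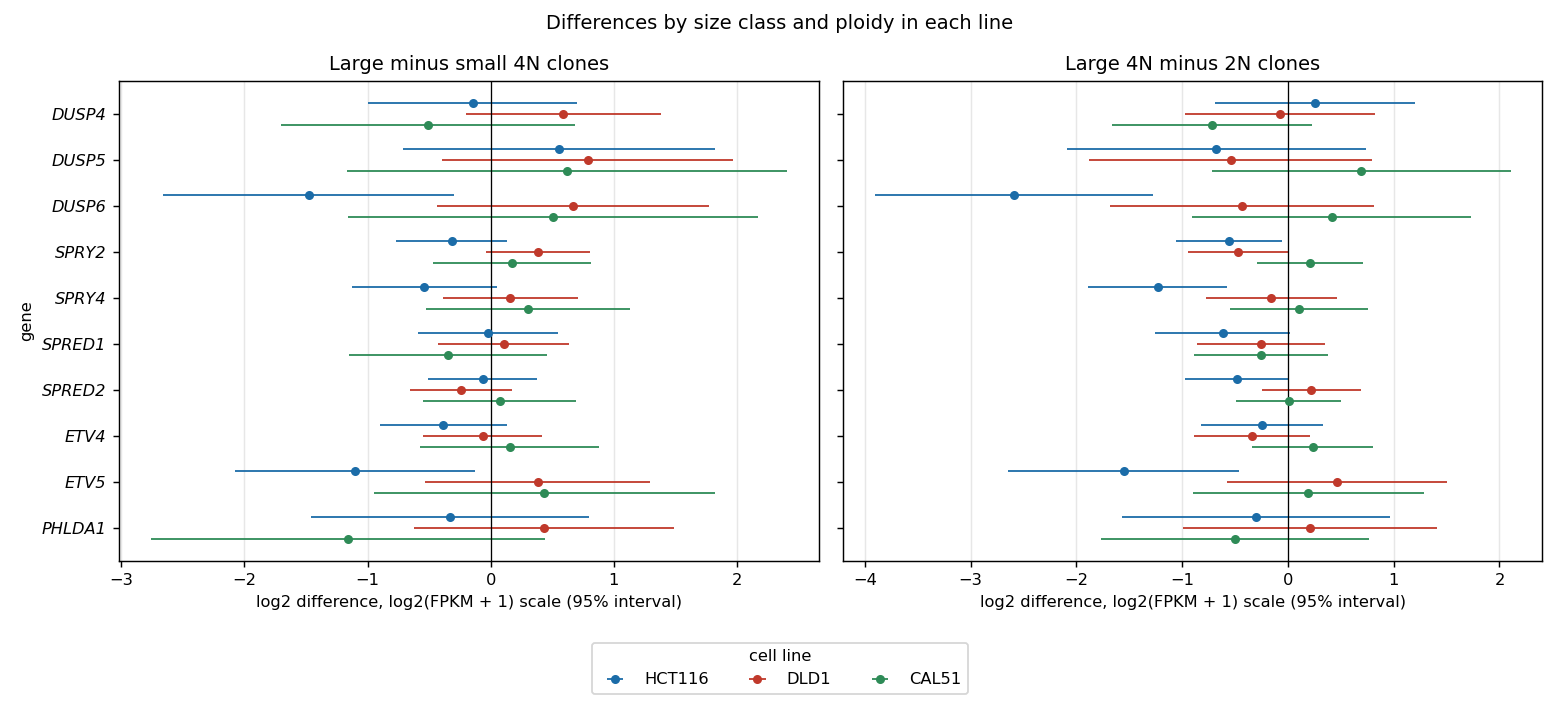
Log2 differences of the 10 genes on the log2(FPKM + 1) scale, large minus small 4N clones on the left and large 4N minus 2N clones on the right, with the 95% interval of the limma fit and 1 colour per line. The DUSP6, SPRY4, ETV5 and SPRY2 intervals of HCT116 lie below 0 on the right (-2.59, -1.23, -1.56 and -0.56). On the left, the DUSP6 and ETV5 intervals of HCT116 lie below 0 (-1.48 and -1.10). None of the differences in either panel passed after adjustment.

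In DLD1 the values of large and small clones overlapped for 9 of the 10 genes. Of the differences between large and small clones, 8 of 10 were above 0, with a median of 0.38. DUSP6 was at 15.8, 26.9 and 10.4 FPKM in small clones 1, 2 and 3 and at 36.6, 14.8, 32.0 and 29.8 FPKM in large clones 1 to 4. Its difference was 0.67 (95% interval -0.43 to 1.77), running from 0.36 without small clone 3 to 1.01 without small clone 2. DUSP4 was at 0.736 ± 0.0744 FPKM (SD, n = 3) in small and 1.69 ± 0.681 (n = 4) in large clones, with large clone 1 as low as the small ones, and differed by 0.59 (-0.20 to 1.38). By limma 0 of 10 passed (0.472% of all tested genes), 0 had an unadjusted p under 0.05 (6.65% of all genes), and voom called 0.

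SPRED2 was the only one of the 10 genes whose large and small DLD1 clones did not overlap, at 17.8 to 23.0 FPKM in large and 23.8 to 26.03 in small clones. Genes lower in this way made up 6.21% of all tested genes, and those higher 5.28%. The difference was -0.24, with an interval of -0.65 to 0.17.

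Against the 2N clones of DLD1, SPRY2 had the largest difference relative to its error. It was at 9.12 and 16.7 FPKM in the 2N clones, 8.44 in the parental library, 5.33, 7.83 and 6.23 in the small clones and 6.69, 8.33, 10.6 and 9.41 in the large clones. The small clones lie below all 2N libraries. The difference between small and 2N clones was -0.85 (95% interval -1.36 to -0.35, adjusted p 0.199). It was -0.45 without 2N clone 2 and -1.26 without 2N clone 1 (adjusted p 0.0649). It was the 1 gene of 10 with an unadjusted p under 0.05 (7.24% of all genes), and 0 of 10 passed by limma (0.337% of all tested genes) or voom. For large against 2N clones 0 of 10 passed by limma, as did 0% of all tested genes, 0 had an unadjusted p under 0.05 (2.99% of all genes) and voom called 0. None of the 10 genes separated all tetraploid clones from all 2N libraries (0.613% of all genes higher, 0.748% lower).

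The 2N reference of DLD1 is itself uneven. DLD1 2N clone 2 had the highest value of the line for DUSP4, DUSP5, DUSP6, SPRY2, SPRY4, SPRED1, ETV4 and PHLDA1. Its DUSP6 was 53.5 FPKM and its PHLDA1 54.4 FPKM, against 25.1 and 19.1 in 2N clone 1.

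In CAL51, DUSP6 was at 52.4 to 98.3 FPKM and ETV4 at 34.0 to 43.7 FPKM over the 7 libraries, the narrowest relative ranges of these genes among the lines. ETV4 was at 36.0 FPKM in the parental library, 34.3 and 34.0 in the 2N clones, 36.0 in the small clone and 39.3, 38.0 and 43.7 in the large clones. All 4 tetraploid clones exceeded the 3 of the 2N class, the small clone by less than the last printed digit, as was so for 2.07% of all tested genes; 0 of 10 were lower in this way (1.95%). The difference between large and 2N clones was 0.23 (95% interval -0.34 to 0.81).

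By limma 0 of 10 genes passed between large and 2N clones of CAL51 (0.465% of all tested genes), between small and 2N clones (0.148%) or between large and small clones (1.52%). None had an unadjusted p under 0.05 in these comparisons, against 8.16%, 4.17% and 12.4% of all genes, and voom called 0 in each. Large clones lay on 1 side of the single small clone for DUSP6 and ETV4, which were higher (23.9% of all genes), and for DUSP4, which was lower (23.2%). With 1 small clone such a separation is common among all genes.

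CAL51 large clone 2 stood apart in both directions. It had the lowest PHLDA1 (5.06 FPKM, against 14.2 and 48.3 in large clones 1 and 3) and the lowest DUSP4 (2.36 against 7.43 and 7.12). It also had the highest SPRY4 of any library, 50.4 FPKM against 23.0 and 26.8, and the highest ETV5, 39.5 against 14.7 and 16.7. The PHLDA1 difference between large and 2N clones was -0.50 (95% interval -1.77 to 0.76) with this clone and 0.22 without it. It was -0.02 without 2N clone 1.

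The difference between size classes was compared between lines by an interaction contrast. Between HCT116 and DLD1 it was -2.15 for DUSP6 (95% interval -3.76 to -0.54, adjusted p 0.409), -1.49 for ETV5 (-2.82 to -0.15) and -0.70 for SPRY2 (-1.32 to -0.08). The ETV5 value was -0.76 without HCT116 large clone 3. These 3 genes had an unadjusted p under 0.05 (9.13% of all genes), and 0 of 10 passed by limma (0.155% of all tested genes) or voom. Between HCT116 and CAL51 0 of 10 passed (1.54% of all tested genes) and between DLD1 and CAL51 0 of 10 (0.667%). In those comparisons 0 genes had an unadjusted p under 0.05 (17.9% and 11.1% of all genes), and voom called 0. The mean of the 3 lines gave 0 of 10 past the threshold (0.398% of all tested genes), 0 with an unadjusted p under 0.05 (9.54%) and 0 by voom. The median over the 10 genes there was -0.08, the HCT116 values lying opposite to most of those in DLD1.

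**Figure D3:**
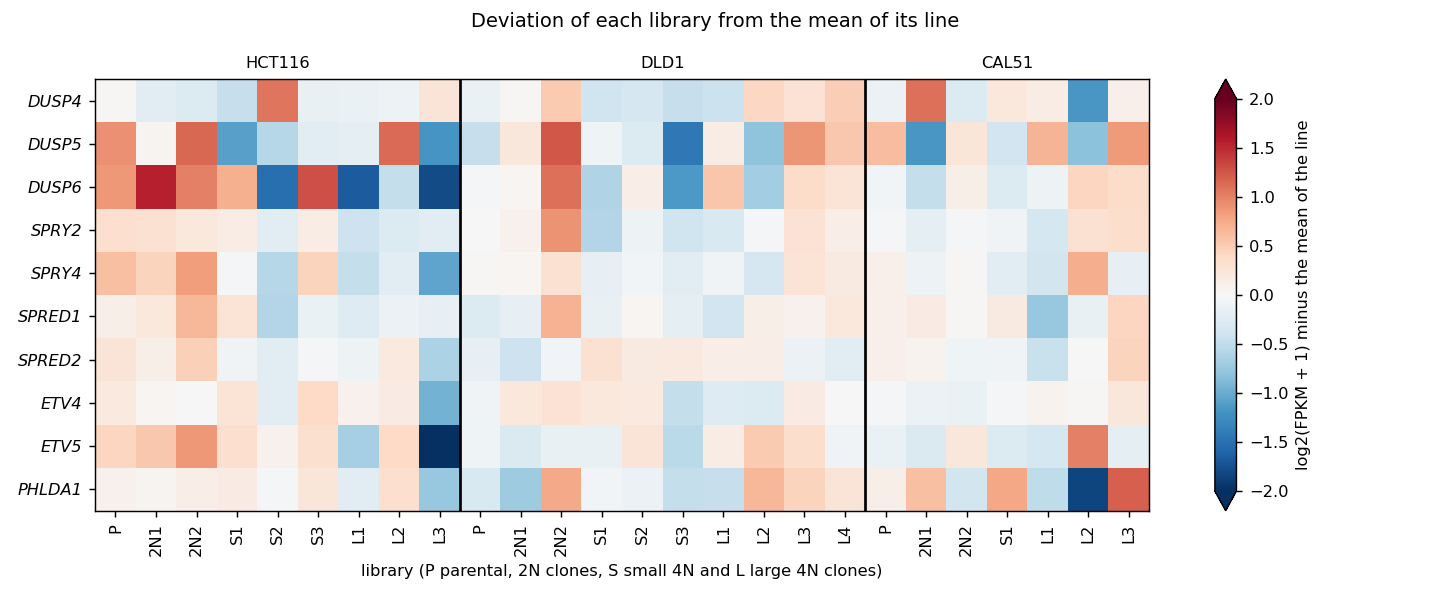
Heat map of log2(FPKM + 1) minus the mean of the line for the 10 genes (rows) and 26 libraries (columns), grouped by line, with red above and blue below the line mean and the scale cut at 2 units either way. HCT116 small clone 2 and large clones 1 and 3 share low DUSP6, SPRY4 and SPRY2, DLD1 2N clone 2 is high in 8 genes, and CAL51 large clone 2 is low in PHLDA1 and DUSP4 and high in ETV5 and SPRY4.

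Several of these genes varied between libraries of a line more than nearly all of the genes they were compared with. Over the 9 HCT116 libraries, DUSP6 had an SD of 1.36 log2 units, larger than that of 99.9% of 12234 genes, and ETV5 had 0.96, larger than that of 99.2%. Without large clone 3 the SD of DUSP6 was 1.27 and that of ETV5 was 0.44, larger than that of 92.1% of genes. The median SD over these 12234 genes was 0.24. DUSP5 exceeded 99.0% of genes in HCT116, 98.9% in DLD1 and 95.2% in CAL51, where the median SDs were 0.24, 0.17 and 0.25. PHLDA1 was high in CAL51 (SD 1.01, above 97.6% of genes, and 0.67 without large clone 2), while ETV4 in CAL51 was among the steadiest, with an SD of 0.12 that exceeded only 9.20% of genes. DUSP6 in CAL51, at an SD of 0.33, exceeded 69.4% of genes. These spreads include differences between classes. The genes compared were not matched for level, and the pseudocount shrinks the spread of low genes. The ranks may therefore depend in part on level.

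Averaged over the 10 genes, the lowest library was HCT116 large clone 3, at -0.88 log2 units from its line mean, with 1 of 10 genes above it. HCT116 large clone 1 (-0.40), HCT116 small clone 2 (-0.28) and DLD1 small clone 3 (-0.51) were also low. DLD1 2N clone 2 was the highest at 0.56, and the 3 2N libraries of HCT116 lay at 0.31 to 0.51. Large clone 2 of HCT116 was at 0.10, apart from the other large clones.

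Some of the genes moved together from clone to clone. After subtraction of line means, 39 of the 45 pairs had a positive Pearson correlation over the 26 libraries, with a median r of 0.37. The points share lines, and the libraries differ in depth, so these values describe the set. Differences between classes were not removed and add to them. Values for pairs of other genes are not given here, so whether 39 of 45 is unusual was not tested. DUSP6 and SPRY4 had r = 0.84 (0.91 in HCT116, 0.81 in DLD1 and 0.56 in CAL51). DUSP6 and SPRY2 had r = 0.71 (0.92, 0.73 and 0.82), and SPRY2 and SPRY4 had 0.64 (0.84, 0.77 and 0.59). Without the 3 libraries that stood apart, 37 of 45 pairs were positive, and the r of DUSP6 and SPRY4 was 0.83 over 23 libraries. In CAL51 alone, that r fell from 0.56 to 0.15 without large clone 2, and the r of SPRY2 and SPRY4 from 0.59 to 0.32.

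ETV5 followed SPRY4 in HCT116 (r = 0.82) and CAL51 (0.95) and not in DLD1 (-0.06, and 0.02 without 2N clone 2). In CAL51, large clone 2 had the highest value of both, and r was 0.70 without it. DUSP4 had a median r of -0.15 with the other 9 genes, and the lines differed in it. It went against all 9 in HCT116 and was positive with 3 of 9 in CAL51 and with 8 of 9 in DLD1, where its r was 0.80 with SPRY2 and 0.78 with SPRED1. Its r with DUSP6 was -0.60 in HCT116, -0.81 in CAL51 and 0.42 in DLD1, the last 0.22 without 2N clone 2. With PHLDA1 it had r = 0.56 over all 26 libraries, and 0.35 over 23 without the libraries that stood apart. HCT116 small clone 2 had the highest DUSP4 of the line (98.6 FPKM, against 33.2 and 41.5 in the other small clones) beside a DUSP6 of 10.8 FPKM.

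**Figure D4:**
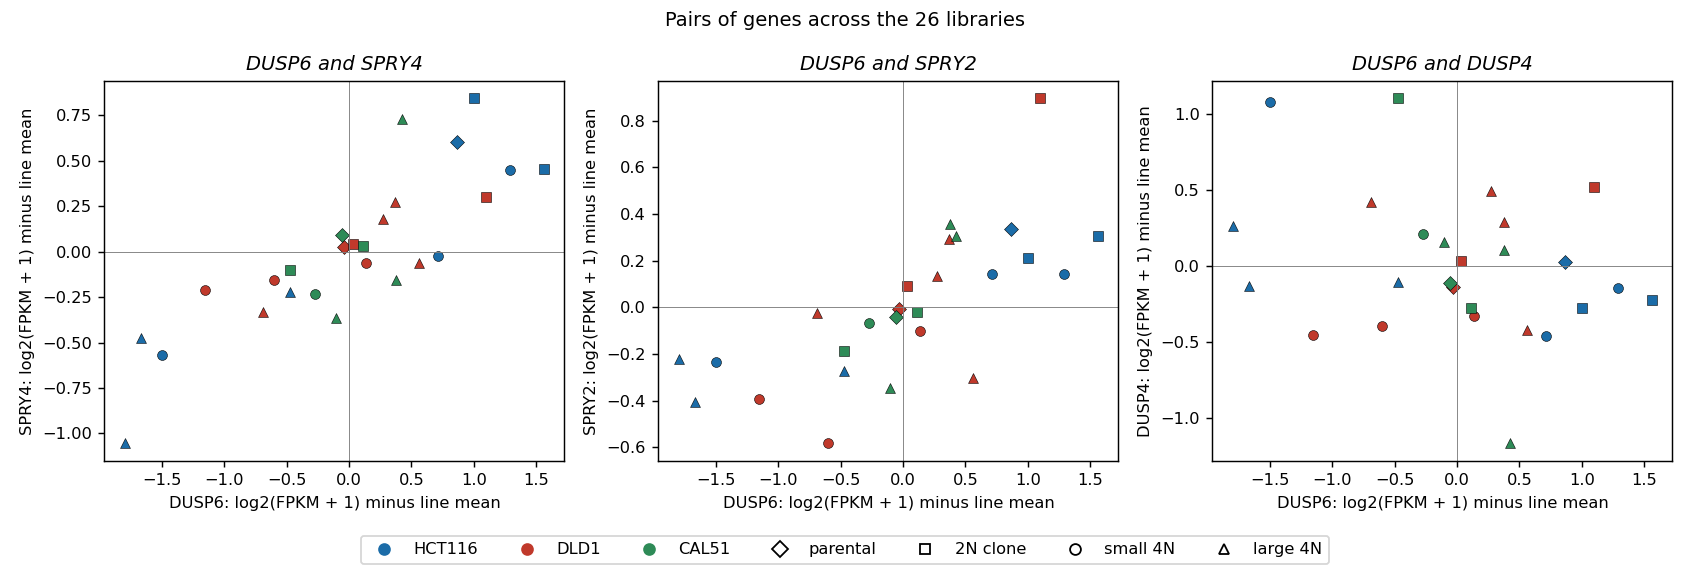
Scatter plots of DUSP6 against SPRY4, SPRY2 and DUSP4, each as log2(FPKM + 1) minus the line mean, with 1 point per library, colour for line and symbol for class. SPRY4 and SPRY2 follow DUSP6 (r = 0.84 and 0.71 over 26 libraries), and DUSP4 does not (r = -0.28).

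Tetraploid clones can gain or lose chromosomes, so each gene was set beside the median of its chromosome and of the genes within 10 Mb. Of 170 pairs of gene and 4N clone, 14 had such a median at least 0.2 log2 units from the 2N libraries of the line. SPRED1, on chromosome 15, was at -0.47 in HCT116 small clone 3, where the chromosome median was -0.45. SPRY4, on chromosome 5, was at -1.69 in HCT116 large clone 3, where the chromosome median was 0.28. DUSP5, on chromosome 10, was at -1.14 in DLD1 large clone 2 with a chromosome median of -0.32, and at -0.72 in CAL51 large clone 2 with a chromosome median of 0.25. PHLDA1 was at -0.63 in CAL51 large clone 1, where the genes within 10 Mb had a median of -0.50. DUSP6 and ETV4 were in none of the 14 pairs.

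Other genes of the pathway, in lists chosen by function, rarely passed in the comparisons of size and ploidy, as was so for all tested genes. Between large and small clones 0.445% of all tested genes passed in HCT116, 0.472% in DLD1 and 1.52% in CAL51. At such shares a count of 0 in short lists says little about the pathway. Of 18 receptors and adaptors, 13 RAS proteins and their GTPase activators and 8 other MAPK phosphatases, 0 passed between large and small clones in any line. Of 15 kinases and scaffolds, ARAF, which phosphorylates MEK, passed in HCT116. It was at 2.79, 2.81 and 11.6 FPKM in large clones 1, 2 and 3, at 12.6, 18.2 and 13.4 in the small clones and at 14.1 to 14.8 in the 2N libraries. It fell by 1.45 log2 units between small and large clones (adjusted p 0.0377). The low ARAF clones are 1 and 2. In large clones 1, 2 and 3, DUSP6 was at 9.49, 23.1 and 8.62 FPKM and SPRY2 at 2.00, 2.30 and 2.42. SPRY4 and ETV5 were lowest in clone 3. A link of these genes to ARAF was not tested.

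ETV1, the third member of the ETS subfamily of ETV4 and ETV5, was the only one of 14 tested other ETS factors past the threshold in these comparisons. In HCT116 it was at 5.07 FPKM in the parental library, 12.51 and 7.98 in the 2N clones, 4.22, 1.16 and 2.27 in the small clones and 0.833, 1.58 and 0.125 in the large clones. It fell by 2.66 log2 units from 2N to large clones (adjusted p 0.00396), and no tetraploid clone reached the 2N range. In that comparison 0.917% of all tested genes passed. Among 19 tested other ERK output genes, FOS, an immediate early gene, was the only one to pass. It was at 110.5 to 171 FPKM in the 2N libraries of HCT116, 32.4 to 85.8 in the small clones and 19.0 to 19.3 in the large clones. It fell by 2.78 log2 units from 2N to large clones (adjusted p 0.00233). Between large and small clones it fell by 2.01 in CAL51. In the mean of the lines it fell by 1.41 (adjusted p 0.00812), where 0.398% of all tested genes passed. In CAL51 the single small clone was at 32.6 FPKM and large clones 1, 2 and 3 were at 4.33, 7.58 and 11.7. The small clone lies within the range of the 2N libraries of CAL51, 13.3 to 36.7 FPKM. The mean of the lines includes this small clone. Dependence of these FOS values on single clones was not tested.

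Between lines, many more of these genes passed, and so did many of all tested genes. The shares of all genes were 49.4% (HCT116 against DLD1), 52.5% (HCT116 against CAL51) and 48.1% (DLD1 against CAL51). The counts below are to be read beside these shares. SPRY1, the one tested gene among SPRY1, SPRY3 and SPRED3, had medians of 74.2 FPKM in CAL51, 4.50 in DLD1 and 1.04 in HCT116, the order seen for SPRY2. In the 2N libraries its differences were -5.16 for HCT116 against CAL51 and -1.42 for HCT116 against DLD1. Among 19 ERK output genes, 13 were higher and 2 lower (HMGA2 and CDC25A, named after their values were seen) in HCT116 than in CAL51, with a median of 1.85. The growth factors EREG, AREG and TGFA had medians of 155.8, 337.6 and 16.2 FPKM in HCT116 and 156.9, 229 and 15.8 in DLD1, and were at or below 0.859 FPKM in every CAL51 library. PHLDA2, a relative of PHLDA1, had medians of 372 FPKM in HCT116, 195.8 in DLD1 and 1.11 in CAL51.

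Of the 8 other phosphatases, 3 (DUSP2, DUSP8 and DUSP10) were higher and 0 lower in HCT116 than in CAL51 (52.5% of all tested genes passed). In DLD1 5 were higher than in CAL51 (DUSP2, DUSP8, DUSP10, DUSP14 and DUSP16) and 2 lower (DUSP1 and DUSP9), of which DUSP1, DUSP14 and DUSP16 were named after their values were seen. DUSP2, an inducible nuclear phosphatase, had a median of 1.40 FPKM in CAL51 against 19.2 in HCT116 and 15.6 in DLD1. FGFR2 and FGFR4, receptors that signal to ERK, had medians of 0.930 and 1.22 FPKM in DLD1, against 27.5 and 14.2 in CAL51 and 3.66 and 23.1 in HCT116. DLD1 was lower than CAL51 for 7 of the 18 receptors and adaptors and higher for 1 (ERBB3, named after its values were seen). Of all tested genes, 48.1% passed between DLD1 and CAL51.

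The genes whose pattern was most like the mean of the 10, after subtraction of line means and over the 26 libraries, were MEX3C (r = 0.80), CTDSP2 (0.79), NR2F1 (0.78), MOSMO (0.78), IRF2BPL (0.77), SLC35A5 (0.76), NAB2 (0.75) and SERINC3 (0.75). Within single lines the r of these genes ran from 0.79 to 0.97 in HCT116, 0.21 to 0.76 in DLD1 and 0.33 to 0.85 in CAL51. The lowest r over the 26 libraries were those of TTC27 (-0.85), SAR1B (-0.78) and TEDC2 (-0.78). Of the 8948 genes compared, the middle 95% lay between -0.62 and 0.55. The immediate early genes FOS and EGR1 had r = 0.40 and 0.51. They followed the mean in HCT116 (0.79 and 0.87) and went against it in DLD1 (-0.73 and -0.34). The r values of these genes outside the 10 were not recomputed without the libraries that stood apart. Those libraries include the lowest (HCT116 large clone 3, -0.88) and the highest (DLD1 2N clone 2, 0.56) in the mean of the 10.

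Some of these genes overlap others on the opposite strand, and whether the counting used strand is not given in the sources used here. An antisense RNA at DUSP6 (AC024909.2) had 0.102 to 2.26 FPKM. ETV4 overlaps DHX8, a helicase gene listed at 5.91 to 13.1 FPKM. SPRY4-AS1 and ETV5-AS1 stayed at or below 1.83 and 1.11 FPKM. In the coordinates of the deposited table (GRCh38), DUSP6 lies on chromosome 12 from 89347232 to 89353271, SPRY4 on chromosome 5 from 142310427 to 142326455, SPRY2 on chromosome 13 from 80335976 to 80340951 and ETV5 on chromosome 3 from 186046308 to 186110318, all on the minus strand.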

How the data were processed

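The values analysed were FPKM per gene in 26 libraries, as deposited by the authors. Per the labels, libraries were directional and poly-A selected. Per the submitters' processing notes, fastp, HISAT2 2.0.5, featureCounts 1.5.0-p3, DESeq2 and GRCh38 were used. Gene lengths, another deposited column, turned FPKM back into whole reads (100% of values within 0.01), which gave the depth.

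The 14835 genes that reached an FPKM of 1 in 3 or more libraries were fitted on log2(FPKM + 1) with limma 3.58.1 in R 4.3.3, with 12 means of line and class, 14 residual degrees of freedom and an intensity trend. Tests were two-sided, with Benjamini-Hochberg adjustment over all tested genes and a threshold of 0.05. The pseudocount of 1 shrinks differences of low genes. Comparisons of lines weighted the parental library and the 2 2N clones equally. Small and large 4N clones were compared with the same 2N clones. For CAL51, which has 1 small clone, the spread was borrowed from the other groups. The fit was also run on simulated data, with no outcome given here. That run does not show how the fit behaves on these libraries. Alternatives included voom, other pseudocounts and filters, a replicate block and each clone left out.

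The 10 genes and all lists were chosen with earlier results of these data known. All 10 are described. Of other lists, at most 4 genes past the threshold per comparison were named by rule, in order of adjusted p. Genes named beyond this rule are marked in the text as named after their values were seen. The nearest genes were the 8 highest and 3 lowest correlations among protein-coding genes with a mean FPKM of at least 1 in every line.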

Additional observations from a re-analysis of the deposited data

How the results depend on the processing

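Of 219 recomputed counts of genes past the threshold, 215 stayed within 1.5 times the reported count. The share of all tested genes that passed in each refit is not given here. The exceptions among the counts were in HCT116. Large against small clones gave between 0 and 1 of 10 genes when 1 clone at a time was left out, the 1 arising without small clone 2 or large clone 2. Large against 2N clones gave 0 to 3 (3 without large clone 2), and 2 with the parental library added. Of 826 recomputed values of single genes, 800 kept direction and side of the threshold, 14 lost it, 9 gained it and 3 reversed. The reversed values, none past the threshold in either form, came from leaving out 1 clone. DUSP5 between large and small HCT116 clones ran from -0.048 (without large clone 2) to 1.11. Between large and 2N CAL51 clones, DUSP5 ran from -0.0071 (without 2N clone 1) to 1.39 and PHLDA1 from -1.29 to 0.22 (without large clone 2).

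Leaving out the 3 libraries that stand apart, for spreads and correlations, was chosen after seeing the data. Clone numbers were checked for pairing. Same-numbered clones of different classes correlated at 0.03 to 0.20 in HCT116 (7 pairs), -0.06 to 0.09 in DLD1 (7 pairs) and 0.18 to 0.21 in CAL51 (2 pairs). Clones with different numbers correlated at -0.20 to 0.16, -0.12 to 0.12 and -0.21 to 0.07. The numbers were taken to pair clones only if every one of 3 or more pairs exceeded 0.1 or a label named a shared origin, and neither held. With a replicate block, 6 of 10 genes passed between HCT116 and DLD1, 4 between HCT116 and CAL51 and 5 between DLD1 and CAL51, and 0 in the other comparisons. ETV4 between HCT116 and CAL51 (adjusted p 0.056) and DUSP5 between DLD1 and both other lines (0.0707 and 0.12) lost the threshold under it, and SPRED1 between HCT116 and DLD1 gained it (0.0302). DUSP5 between DLD1 and CAL51 also lost it with no filter (0.0954) and with voom (0.0587), and PHLDA1 between HCT116 and DLD1 with no filter (0.0872). The cause was not tested. The single small CAL51 clone could not be left out. With 1 to 4 clones per group, the intervals are wide, and differences of the size seen for most genes could not be told from 0.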
